A study of Mus musculus with 22 samples.

Results

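Organoids of mouse bladder urothelium that were knocked out (KO) or wild type (WT) for Arid1a were compared for how the RNA of each gene was divided between polysomes and the lighter, subpolysome part of a gradient. The quantity is the log2 of polysome over subpolysome CPM within 1 culture, where CPM are counts scaled to a common library total. It was taken in 3 KO and 3 WT cultures. The members are therefore the 12 polysome and subpolysome libraries of these 6 cultures, of 22 libraries in the series. They were chosen by the fraction and genotype in the sample titles, and a polysome and a subpolysome library were joined where genotype and replicate number agreed. The rule that picks them reads the labels only.

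The KO organoids are labelled ARID1A KO and the WT organoids ARID1A WT. Both are primary urothelial organoids, cell clusters grown from bladder epithelium. The lysates were separated on a sucrose gradient, RNA was purified on columns with DNase treatment, and reads were counted per gene. The deleted part of Arid1a, any Cre driver, the strain, sex and age of the mice, and whether the 3 cultures of a genotype came from separate mice are not stated in the sources used here. The p-values below therefore refer to variation between these cultures, which may be technical. In the edgeR fits the SE of a gene was not set by the spread of its own cultures alone. In bulk organoids, fewer cells of a type and less RNA per cell cannot be told apart.

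An mRNA that is being read by several ribosomes sediments deep in the gradient with the polysomes, while free mRNA, mRNA held in other ribonucleoprotein particles and mRNA carrying few ribosomes sediment higher. The ratio of polysome to subpolysome RNA is used as a measure of how much of an mRNA is engaged in translation, although it also depends on the length of the reading frame and on RNA that never meets a ribosome. ARID1A is a DNA-binding subunit of the BAF complex, which moves nucleosomes at enhancers and promoters, and the gene is often mutated in bladder cancer.

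Library totals were 64911189 to 76594655 counts in polysomes and 39245248 to 51628570 counts in subpolysomes. Of 24421 genes in the files, 13392 passed the filter on low counts and were tested. The marker sums that follow are CPM of each library's total, without the scaling factors that the CPM of single genes further down carry. Epithelial and urothelial markers were present throughout: the 17 markers summed to 12000 to 14900 CPM in KO polysomes, 12000 to 13200 in WT polysomes, 9770 to 11300 in KO subpolysomes and 10500 to 11000 in WT subpolysomes. The 9 fibroblast markers summed to at most 4.85 CPM in any library and the 6 endothelial markers to at most 1.47, the 6 neural markers to at most 5.68, and 4 of 5 erythroid markers were at 0 in every library. The 9 immune markers summed to 15.8 to 23.7 CPM in KO libraries and 6.69 to 9.91 in WT libraries. Most of that sum was Cd68, a lysosomal protein of macrophages, at 6.5 to 23.6 CPM over all libraries, and Ptprc, the pan-leukocyte antigen CD45, reached at most 0.0616 CPM. The 6 muscle markers summed to 19.4 to 27.8 CPM in KO polysomes, 7.44 to 7.98 in WT polysomes, 3.2 to 4.63 in KO subpolysomes and 1.09 to 2.19 in WT subpolysomes. Most of each of these sums was Acta2, at 1.05 to 27.7 CPM over all libraries. The other muscle markers reached at most 0.379 CPM (Myh11), and only Acta2 passed the filter on low counts. The part of these marker genes in the ratios below was not tested.

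The targeted gene did not lose its counts. Arid1a (chromosome 4, 133679008 to 133756769, mm10) gave 20.2, 16.4 and 12.03 CPM in KO polysomes, against 28.9, 20.8 and 18.1 CPM in WT polysomes. In subpolysomes it gave 66.4, 56.0 and 54.1 CPM in KO cultures, against 52.9, 54.0 and 48.2 CPM in WT cultures. Its log2 ratios were −1.72, −1.77 and −2.17 in KO cultures, against −0.87, −1.38 and −1.41 in WT cultures, so all 3 KO values lay below all 3 WT values. The fitted difference was −0.66 on the log2 scale (SE 0.17, 95% interval −1.02 to −0.30), with an adjusted p of 0.248 over all genes in edgeR's quasi-likelihood test, which does not pass. In total RNA the gene was lower in KO by −0.60 on the log2 scale (adjusted p = 5.7e-06, edgeR). A count over the whole gene cannot check a deletion of a part of it. Arid1b, the alternative subunit of the same complex, differed by −0.05 (95% interval −0.39 to 0.28), which turns to 0.0063 when libraries are scaled by their totals alone.

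The division between the fractions was called different between the genotypes for very few genes. At an adjusted p under 0.05 (edgeR's quasi-likelihood test of the interaction of genotype and fraction, with each culture as a block and Benjamini-Hochberg adjustment), 12 of 13392 genes differed, which is 0.0896% of the genes tested. The ratio was higher in KO for 6 of them (0.0448%) and lower for 6 (0.0448%). C1s1, Dnase1l2, D730001G18Rik, Shmt1, Ttll5 and Calcb rose, and Mir6240, Rn45s, Rsrp1, Ifi202b, Spp1 and Wsb1 fell. At an unadjusted p under 0.05, 485 genes were higher (3.62%) and 593 lower (4.43%), together 1078 genes (8.05%). Broad differences were called within each fraction and in total RNA, in separate fits of KO against WT at the same threshold. These passed 3757 of 13066 genes in polysomes (28.8%), 2782 of 12645 in subpolysomes (22%) and 7025 of 13198 in total RNA (53.2%). Those fits compare the genotypes directly and without a block, while the ratio test compares a difference of differences. The smaller count for the ratio therefore does not by itself show a smaller change.

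The count depends on the model. With the block removed, C1s1 alone passed, and with limma on the 6 log2 ratios 4 genes passed (BC016548, Pdcd1, Thrb and Kcnh3, named here after their values were seen), none of them among the 12. DESeq2's test with the same block passed 34 genes, 10 of them among the 12. Leaving out 1 culture gave 20 calls without KO replicate 1, 5 without WT replicate 1 and 6 without WT replicate 3.

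Across all genes the differences were centred near 0, which the scaling of each library largely sets. A shift shared by most genes could therefore not be seen here. The median difference was 0.02 on the log2 scale, the quartiles were −0.18 and 0.19, and 52.5% were above 0. The intervals bounded large changes, while smaller ones may have been missed: the smallest difference called was 0.84 in size. Among the 7118 genes with an average log2 CPM of at least 4, the median SE was 0.16. For 7084 of them (99.5%) the 95% interval of the difference lay wholly within 1 log2 unit on either side of 0. Differences of more than 1 log2 unit were found for 6 of these genes: Rn45s, Mir6236, Lars2, Rsrp1, Ifi202b and Ttll5. The 3 KO cultures lay wholly above the 3 WT cultures for 884 genes (6.60%) and wholly below for 938 genes (7.0%), together 1822 genes (13.6%).

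**Figure D1:**
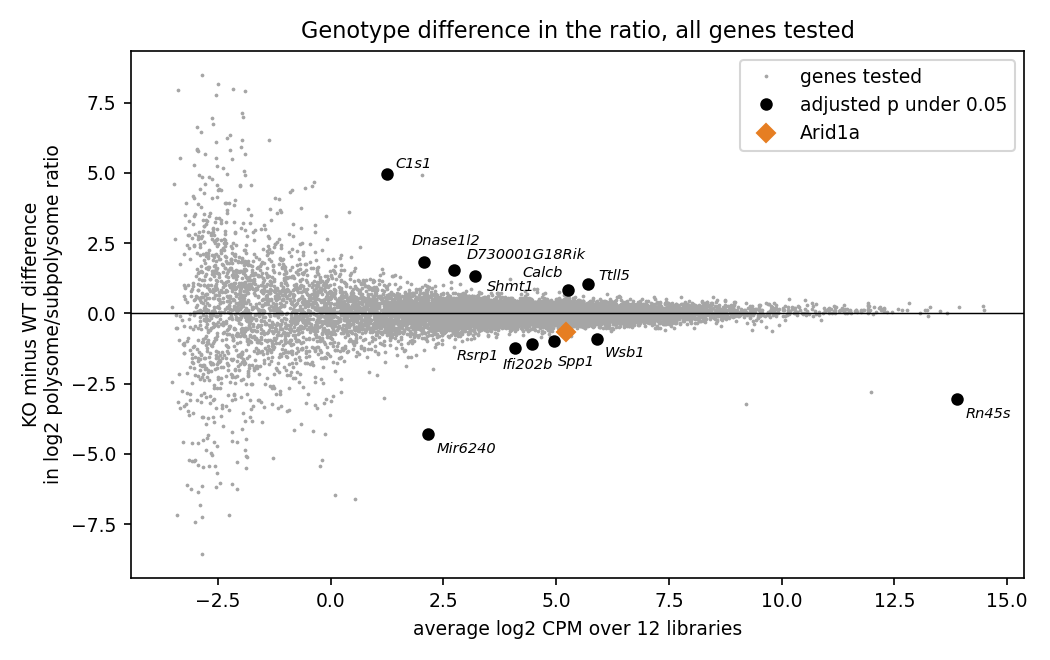
KO minus WT difference in the log2 polysome to subpolysome ratio (vertical axis) against average log2 CPM over the 12 libraries (horizontal axis), 1 point per gene tested. The 12 genes with adjusted p under 0.05 are black and named, Arid1a is the orange diamond, and above a log2 CPM of 4 nearly all genes lie within 1 log2 unit of 0.

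The cultures resembled each other closely among genes with higher counts, and less so over all genes tested. Among genes with an average log2 CPM of at least 4, the log2 ratios of a pair of cultures correlated with r = 0.952 to 0.965 within KO, 0.972 to 0.977 within WT and 0.945 to 0.972 between the genotypes. Over all genes tested, r was 0.735 to 0.773 within KO, 0.785 to 0.797 within WT and 0.730 to 0.776 between the genotypes. All of these are correlations across genes, which are not replicates. The spread between cultures was thus wider in KO: the SD of the difference between a pair of cultures was 0.31 to 0.36 within KO and 0.26 to 0.29 within WT, and 0.27 to 0.39 between genotypes.

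Among the genes that rose, the largest difference belonged to C1s1, which encodes the C1s protease of the classical complement pathway (chromosome 6, 124530344 to 124542392). Its subpolysome library counts were 1, 0 and 1 in KO cultures, against 77, 114 and 117 in WT cultures. In polysomes the counts were 108, 132 and 89 in KO cultures, against 435, 511 and 399 in WT cultures. The transcript was thus lower in KO in both fractions and nearly missing from one of them. Pooled over cultures, 2 against 308 subpolysome counts gave a KO over WT ratio of CPM of 0.00661, with an exact 95% interval of 0.000796 to 0.0241 that covers counting error only. The log2 ratios were 4.15, 5.50 and 3.995 in KO cultures, against 1.104, 0.62 and 0.49 in WT cultures, and the fitted difference of 4.96 (SE 0.77, adjusted p = 0.0036, edgeR) depends on the prior count added to such low counts. C1s1 has a close paralog, C1s2, and how the counting split reads between them is not given. The call held without each of the 6 cultures in turn, with differences of 4.21 (without KO replicate 2) to 5.50.

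Ttll5, an enzyme that adds glutamate chains to tubulin (chromosome 12, 85824693 to 86053760), was also lower in KO in both fractions, and more so in subpolysomes. In polysomes it had 12.2, 13.7 and 11.04 CPM in KO cultures, against 31.9, 40.4 and 37.6 in WT cultures. In subpolysomes it had 20.8, 25 and 20.8 CPM in KO cultures, against 103, 143 and 171 in WT cultures. All 3 KO ratios (−0.77, −0.87 and −0.91) lay above the WT ratios (−1.68, −1.82 and −2.19). The difference in the log2 ratio was 1.04 (SE 0.16, adjusted p = 0.0036, edgeR), and without WT replicate 3 it was 0.87 with an adjusted p of 0.065. Nkain1, a membrane protein known to bind the sodium-potassium pump, had the same layout, at 5.54, 5.52 and 5.52 CPM in KO polysomes, against 15.6, 13.4 and 18.3 in WT polysomes, and 11.04, 12.7 and 10.8 CPM in KO subpolysomes, against 52.3, 65.3 and 61.8 in WT subpolysomes. Its difference of 0.87 (SE 0.18) did not pass (adjusted p = 0.062, edgeR).

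Calcb and Dnase1l2 were higher in KO in both fractions, and more so in polysomes. Calcb encodes a calcitonin gene-related peptide (chromosome 7, 114716555 to 114723368). It had 62.9, 61.1 and 74.6 CPM in KO polysomes, against 17.7, 20.8 and 22.4 in WT polysomes. In subpolysomes it had 43.9, 41.0 and 44.1 CPM in KO cultures, against 21.9, 23.9 and 25.04 in WT cultures. Its log2 ratio was 0.62 ± 0.13 in KO (SD, n = 3) and −0.22 ± 0.08 in WT (SD, n = 3). As each library is scaled on its own, the sign of a ratio does not say which fraction held more of the RNA. The difference was 0.84 (SE 0.15, adjusted p = 0.015, edgeR), the smallest in size among the 12. The call was lost when KO replicate 3 or WT replicate 1, 2 or 3 was left out, with differences of 0.77 to 0.85 there and adjusted p up to 0.153.

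Dnase1l2 is a DNase that removes nuclear DNA in cornifying keratinocytes (chromosome 17, 24440087 to 24443763). It had 5.29, 5.75 and 6.36 CPM in KO polysomes, against 0.961, 0.908 and 0.634 in WT polysomes. In subpolysomes it had 5.87, 7.50 and 7.04 CPM in KO cultures, against 3.73, 2.73 and 4.08 in WT cultures. The genotypes did not overlap in either fraction, and the difference in the log2 ratio was 1.84 (SE 0.34, adjusted p = 0.015, edgeR). It ranged from 1.52 to 2.07 with single cultures left out, and was no longer called without KO replicate 2 or 3 or WT replicate 1 or 3 (adjusted p up to 0.145).

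Shmt1 and D730001G18Rik differed mainly in 1 fraction. Shmt1 is the cytosolic serine hydroxymethyltransferase, which feeds 1-carbon units from serine into folate metabolism (chromosome 11, 60788897 to 60811265). Its polysome level was 8.47, 6.98 and 8.15 CPM in KO cultures, against 8.22, 6.39 and 5.80 in WT cultures, and these overlapped. Its subpolysome level was 8.72, 5.80 and 6.37 CPM in KO cultures, against 16.3, 11.2 and 17.9 in WT cultures. The KO over WT change was 0.20 on the log2 scale in polysomes (adjusted p = 0.43) and −1.11 in subpolysomes (adjusted p = 0.00029), both from edgeR. The difference of 1.33 in the ratio (SE 0.24, adjusted p = 0.015, edgeR) was lost without KO replicate 2 or 3 or WT replicate 1 or 3, where it was 1.06 to 1.39 with adjusted p up to 0.198. D730001G18Rik, a RIKEN gene named by clone, showed the reverse: it had 2.34, 2.26 and 3.53 CPM in KO polysomes, against 0.911, 0.908 and 1.07 in WT polysomes. Its subpolysome values overlapped, with 11.1, 10.9 and 13.5 CPM in KO cultures, against 12.2, 14.6 and 10.9 in WT cultures. Its difference of 1.55 (SE 0.27, adjusted p = 0.012, edgeR) was lost without KO replicate 3 or WT replicate 1 or 2 (adjusted p up to 0.0987).

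**Figure D2:**
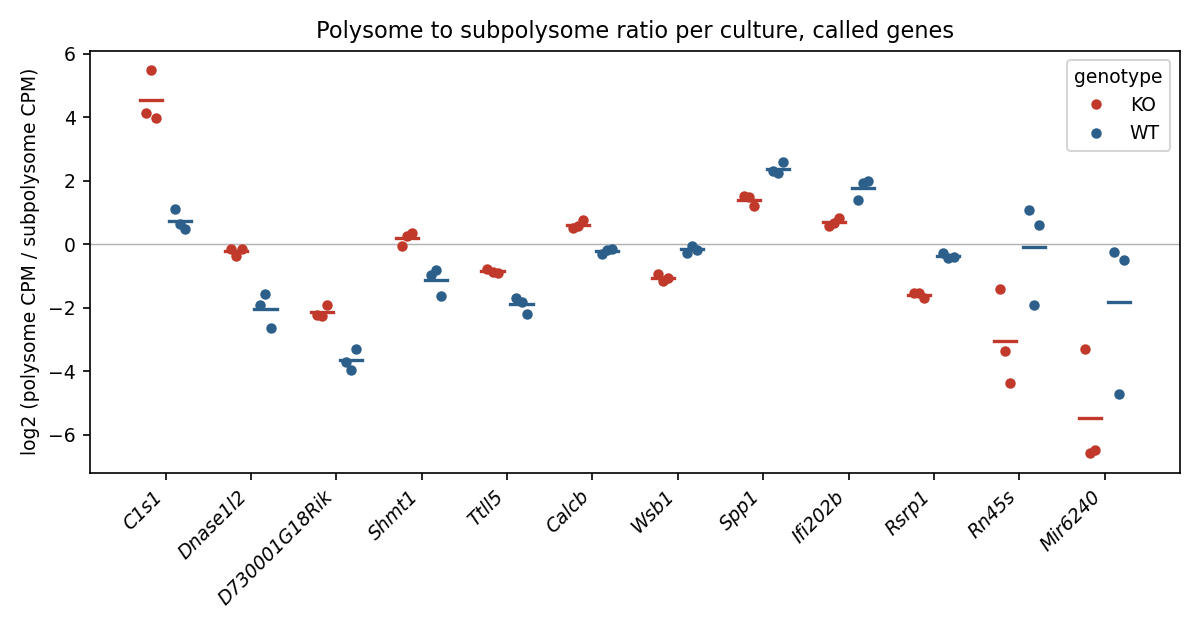
Log2 polysome over subpolysome CPM of the 12 called genes, with 1 point per culture (KO red, left of WT blue) and a bar at the mean of 3 cultures. For 10 genes the genotypes do not overlap, and for Rn45s and Mir6240 they do.

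Rsrp1, Wsb1, Ifi202b and Spp1 shifted towards the subpolysome fraction in KO. Rsrp1 encodes a protein rich in arginine and serine (chromosome 4, 134923625 to 134927370). It had 9.14, 7.23 and 7.48 CPM in KO polysomes, against 20.3, 16.1 and 11.8 in WT polysomes. In subpolysomes it had 26.6, 21.2 and 24.1 CPM in KO cultures, against 24.7, 21.7 and 15.5 in WT cultures, so the genotypes separated in polysomes and overlapped in subpolysomes. The log2 ratios were tightly grouped, at −1.59 ± 0.08 in KO and −0.37 ± 0.08 in WT (SD, n = 3 each). The difference of −1.22 (SE 0.18, adjusted p = 0.0036, edgeR) passed with every culture left out in turn.

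Wsb1, a substrate adapter of an E3 ubiquitin ligase with a SOCS box (chromosome 11, 79239382 to 79254709), moved the same way. It had 37.5, 39.0 and 37.4 CPM in KO polysomes, against 52.98, 57.0 and 62.9 in WT polysomes, and 71.7, 87.4 and 78.8 CPM in KO subpolysomes, against 63.7, 58.5 and 70.6 in WT subpolysomes. The genotypes did not overlap in either fraction: KO was lower in polysomes by −0.61 on the log2 scale (adjusted p = 0.0012), and in subpolysomes the value was 0.31 (adjusted p = 0.056), both from edgeR. The difference in the log2 ratio was −0.90 (SE 0.15, adjusted p = 0.0057, edgeR), and without WT replicate 2 the adjusted p was 0.0506.

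Ifi202b is an interferon-induced protein that binds DNA in the cytosol (chromosome 1, 173962569 to 173982844). Spp1 encodes osteopontin, a secreted phosphoprotein of the extracellular matrix (chromosome 5, 104435111 to 104441053). Both were lower in KO in both fractions, and more so in polysomes. Ifi202b had 13.8, 17.4 and 13.9 CPM in KO polysomes, against 31.8, 52.7 and 62.9 in WT polysomes, and 9.24, 10.9 and 7.74 CPM in KO subpolysomes, against 12.1, 13.8 and 15.7 in WT subpolysomes. Spp1 had 11.5, 15.8 and 13.3 CPM in KO polysomes, against 57.5, 101 and 102 in WT polysomes, and 3.99, 5.64 and 5.81 CPM in KO subpolysomes, against 11.6, 21.1 and 16.9 in WT subpolysomes. In each fraction the lowest WT value exceeded the highest KO value for both genes. The differences in the log2 ratio were −1.08 for Ifi202b (SE 0.19, adjusted p = 0.012) and −0.98 for Spp1 (SE 0.17, adjusted p = 0.013), from edgeR. The first was lost without WT replicate 2 or 3 (adjusted p up to 0.12), and Spp1 was lost without KO replicate 3 or WT replicate 1 or 3 (adjusted p up to 0.128). Ifi202b belongs to a cluster of very similar genes, among which read counting may be uncertain.

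Pnn, Chac2, Ogt and Tmprss11e completed the 8 lowest differences among genes with an average log2 CPM of at least 4 whose cultures did not overlap, and none passed. Pnn (pinin, a protein of desmosomes and of splicing complexes) had 23.5, 20.2 and 17.2 CPM in KO polysomes, against 22.03, 20.1 and 17.3 in WT polysomes. Its subpolysome level was 58.0, 47.5 and 43.8 CPM in KO cultures, against 35.7, 20.3 and 26.3 in WT cultures, which was 0.86 higher on the log2 scale (adjusted p = 0.00024, edgeR). Ogt, the O-GlcNAc transferase, and Tmprss11e, an epithelial serine protease, had this layout too, with polysome differences of −0.02 and 0.03 and subpolysome differences of 0.70 and 0.73 on the log2 scale. The ratio differences were −0.86 for Pnn (adjusted p = 0.055), −0.72 for Ogt (0.221), −0.69 for Tmprss11e (0.20) and −0.76 for Chac2, a glutathione-degrading enzyme (0.221), all adjusted p from edgeR. On the high side, Ly6g6c (0.86), Lig1 (0.80), Adamtsl5 (0.76), Eya2 (0.70) and Sugp2 (0.69) did not pass either, with adjusted p of 0.098 to 0.248.

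**Figure D3:**
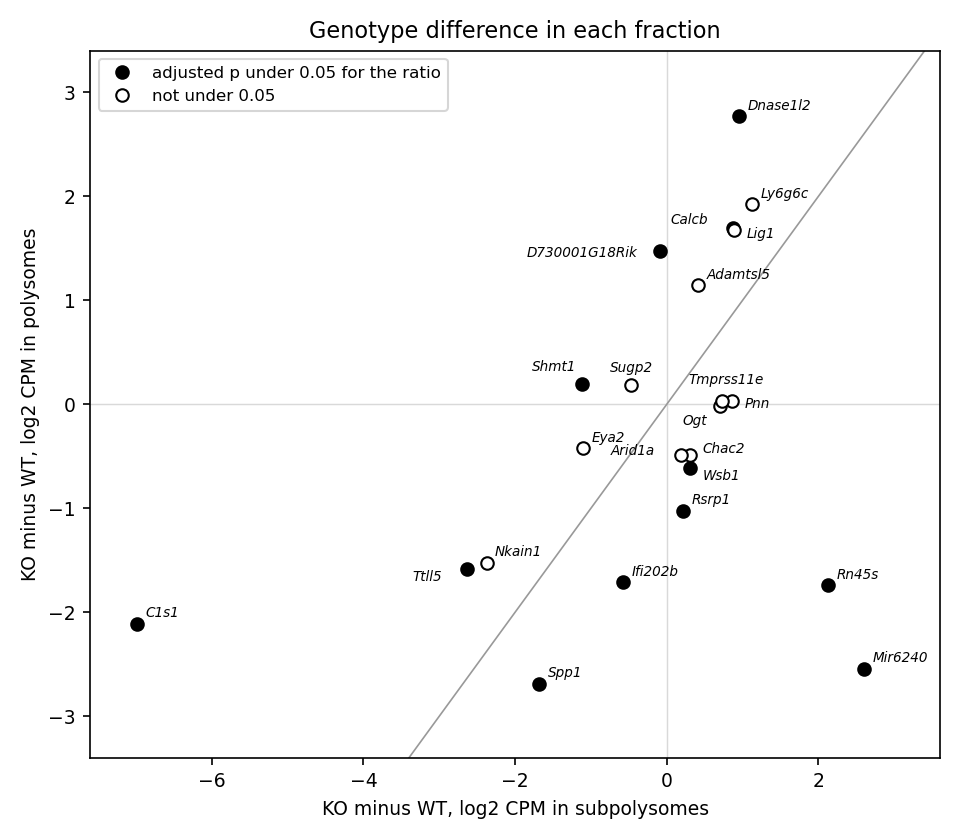
KO minus WT difference in log2 CPM in subpolysomes (horizontal axis) and in polysomes (vertical axis) for the called genes (filled), the other genes with the highest and lowest ratio differences and Arid1a (open). On the diagonal both fractions differ alike; genes above it have a higher ratio in KO. C1s1, Ttll5 and Spp1, lower in KO in both fractions, lie in the lower left.

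Rn45s and Mir6240 fell as well, with cultures that overlapped. Rn45s is the 45S ribosomal RNA precursor, and Mir6240 is annotated as a microRNA gene (chromosome 5, 114851948 to 114852064). Rn45s took 0.653, 0.307 and 0.476% of the counts in KO polysomes, against 1.68, 0.208 and 2.70% in WT polysomes, and 0.880, 1.72 and 5.59% in KO subpolysomes, against 0.460, 0.439 and 0.983% in WT subpolysomes. Its log2 ratios were −1.41, −3.35 and −4.36 in KO cultures, against 1.08, −1.93 and 0.60 in WT cultures. WT replicate 2 thus lay below KO replicate 1, and the cultures of 1 genotype spanned about 3 log2 units. The difference was −3.05 (SE 0.60, adjusted p = 0.029, edgeR), and it was lost without KO replicate 2 or WT replicate 1 or 3 (adjusted p up to 0.271). Its size moved with the culture left out, to −3.83 without KO replicate 1, −2.36 without KO replicate 3, −2.42 without WT replicate 1 and −3.91 without WT replicate 2.

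Mir6240 had log2 ratios of −3.31, −6.59 and −6.49 in KO cultures, against −0.25, −4.71 and −0.50 in WT cultures, on library counts of 4 to 870. The SD of the log2 ratios of Mir6240 was 1.9 in KO and 2.5 in WT, beside which the SE of its fit is small. Its difference was −4.30 (SE 0.80, adjusted p = 0.015, edgeR), and it was lost without KO replicate 2 or 3 or WT replicate 1 or 3 (adjusted p up to 0.266). It was −5.49 without KO replicate 1, −3.58 without KO replicate 3, −3.63 without WT replicate 1 and −5.19 without WT replicate 2. Mir6236, also annotated as a microRNA gene, and Lars2, the mitochondrial leucyl-tRNA synthetase, had differences of −3.24 and −2.81 that did not pass (adjusted p = 0.158 and 0.165, edgeR). Over the 12 libraries the log2 CPM of Mir6240, Mir6236 and Lars2 correlated with that of Rn45s at r = 0.94, 0.917 and 0.915, as a description across libraries of the same preparations. The part of ribosomal RNA in these 3 features was not tested. The mature sequences that RefSeq gives for the 2 microRNAs (GRCm38.p6, both on the plus strand, 5′ to 3′) are shown because Mir6240 fell and Mir6236 followed Rn45s closely across the libraries. Capitals mark the seed, bases 2 to 8, which the 2 do not share.
mmu-miR-6240 (chr5:114851973-114851998): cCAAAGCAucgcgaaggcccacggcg
mmu-miR-6236 (chr9:110281353-110281371): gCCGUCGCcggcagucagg

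The median difference in the ratio moved little with the change in total RNA, while its spread was wider among genes that changed over 2-fold. Of the 12 genes, 11 also differed in total RNA, where 53.2% of all genes did. Genes higher in KO total RNA by over 2-fold (905) had a median difference in the log2 ratio of 0.07, genes higher by less (2637) 0.05, genes not called (6079) 0.01, genes lower by less than 2-fold (2721) −0.03, and genes lower by over 2-fold (721) 0.02. Of the genes over 2-fold higher, 6.63% had a higher and 3.54% a lower ratio in KO at an unadjusted p under 0.05 (edgeR). Of those over 2-fold lower the shares were 3.61% and 7.49%, against 3.62% and 4.43% of all genes. The quartiles of these 2 classes were −0.34 and 0.42, and −0.44 and 0.45, against −0.17 and 0.18 for genes not called. H19, an imprinted noncoding RNA, was 4.66 higher on the log2 scale in KO total RNA, and its ratio differed by 0.08 (95% interval −0.29 to 0.45). Upk3a, a uroplakin of the luminal surface, was 2.36 higher in KO total RNA, and its ratio differed by −0.04 (−0.38 to 0.30), which is 0.018 with scaling by library totals. Measured against total RNA in place of subpolysomes, the polysome share differed for 0 of 13507 genes (0.00%) in edgeR, with 323 genes (2.39%) at an unadjusted p under 0.05. C1s1 differed by 0.19 in that polysome to total RNA comparison. Ttll5 (−0.17) and Shmt1 (−0.14) had the opposite sign there to their ratio over subpolysomes, and the other called genes kept their sign. Shmt1 was 0.37 higher on the log2 scale in KO total RNA (adjusted p = 0.0054, edgeR).

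The chosen genes of translation control did not pass. Eef2k, the kinase that phosphorylates and inhibits elongation factor 2, had log2 ratios of 1.19, 1.46 and 1.33 in KO cultures, against 1.35, 1.25 and 1.31 in WT cultures. The difference was 0.02 (95% interval −0.28 to 0.32), with its sign turning when all 18 organoid libraries were fitted (−0.007), while its level was 0.81 higher in KO polysomes and 0.80 higher in KO subpolysomes (adjusted p = 0.00016 and 4.8e-05, edgeR). Eef2, its target, differed by 0.25 in the ratio (−0.23 to 0.73). Atf4, the transcription factor of the integrated stress response, differed by 0.09 (−0.24 to 0.42) and Ddit3, a further stress factor, by 0.12 (−0.20 to 0.44). The growth regulators Myc and Ccnd1 differed by −0.01 (−0.33 to 0.30) and −0.05 (−0.40 to 0.30), and both signs turned under scaling by library totals, to 0.043 and 0.0068. Odc1, the first enzyme of polyamine synthesis, had KO ratios of −0.09, −0.49 and −0.36, all above the WT ratios of −0.58, −0.85 and −0.51. Its difference of 0.33 (0.02 to 0.65) did not pass (adjusted p = 0.58, edgeR).

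No chosen urothelial or growth gene passed. Krt5, a basal keratin, differed by 0.30 (95% interval −0.11 to 0.71), Trp63, the basal transcription factor p63, by −0.15 (−0.45 to 0.15, with all KO cultures below the WT cultures), Pparg, a luminal nuclear receptor, by 0.19 (−0.12 to 0.51, all KO cultures above), and the proliferation marker Mki67 by 0.18 (−0.19 to 0.54). Fth1, the ferritin heavy chain, differed by 0.27 (−0.07 to 0.61). Igf2, an imprinted growth factor, differed by −0.39 (−0.95 to 0.17), and by 0.05 without WT replicate 1. The adjusted p of these 6 genes in edgeR were 0.71 to 0.87.

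Groups of genes with shared functions were described over 34 lists with 1050 different genes tested. Spp1 was the only listed gene called, and 48 genes were higher and 50 lower at an unadjusted p under 0.05, together 9.33%, against 8.05% of all genes tested. The median difference of the listed genes was 0.03, against 0.02 over all genes. The medians of 33 lists lay between −0.20 and 0.21. Replication-dependent histones, which lack poly(A) tails, had a median of −1.36 over 36 genes that rests on low counts: it was −2.41 without KO replicate 1 and −0.08 without KO replicate 3.

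Of the translation machinery, 5 lists had medians close to that of all genes (0.02), while cytosolic ribosomal protein genes lay slightly above it. Of these 79 genes, 74 had a difference above 0, against 52.5% of all genes, with a median of 0.11. At an unadjusted p under 0.05, 1 of them was higher, against 3.62% of all genes. The per-culture medians of the log2 ratio of the 79 genes were −3.88, −3.63 and −3.05 in KO cultures, against −3.62, −3.60 and −3.63 in WT cultures. The KO cultures thus spread around the WT cultures, with KO replicate 3 highest and KO replicate 1 lowest. Rpl39 had the largest single difference at 0.52 (SE 0.18, adjusted p = 0.48, edgeR). The 38 initiation factors had a median of 0.00, the 17 elongation and termination factors 0.03, the 26 genes of the mTOR pathway 0.01, the 50 ribosome biogenesis genes 0.03 and the 20 aminoacyl-tRNA synthetases 0.03. None of these 5 lists had a called gene, and 3 of their genes were lower at an unadjusted p under 0.05: Nop58 of ribosome biogenesis (−0.35), Dars (−0.37) and Wars (−0.36). Of all genes tested, 4.43% were lower at that threshold, a larger share than in these 5 lists together.

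Among the lists with positive medians, Atf4 targets, which serve amino acid uptake and synthesis, had a median of 0.17 with 19 of 27 genes above 0. Of them, 7 were higher and 1 lower at an unadjusted p under 0.05, and none was called. Of all genes tested, 3.62% were higher and 4.43% lower at that threshold. The 7 Atf4 targets were the amino acid transporter genes Slc1a5 (0.71), Slc3a2 (0.38) and Slc7a5 (0.47), the serine synthesis genes Psat1 (0.36), Psph (0.34) and Phgdh (0.35), and the proline synthesis gene Pycr1 (0.68), while the transcription factor gene Cebpg was lower (−0.40). The per-culture medians of the list overlapped, at −0.02, 0.22 and 0.40 in KO cultures, against −0.00, 0.28 and 0.10 in WT cultures. DNA replication genes had a median of 0.15 with 31 of 43 above 0. The smallest p in it belonged to Lig1 (0.80), DNA ligase 1, and Mcm7 (0.46), a subunit of the replicative helicase. Mitosis genes had a median of 0.13 with 26 of 41 above 0. The smallest p in it belonged to Ube2c (0.49), a ubiquitin-conjugating enzyme that works with the anaphase-promoting complex. These 2 lists were also higher in KO total RNA, where 41 of 43 and 41 of 41 genes were called higher, against 3557 of all 13198 genes tested there (27.0%).

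For the counts that follow, 3.62% of all genes tested were higher and 4.43% lower at an unadjusted p under 0.05. Among the lists with negative medians, p53 targets had a median of −0.13 with 23 of 30 genes below 0. Of them, 4 were lower at an unadjusted p under 0.05 and none was called: Pmaip1 (−0.60), which encodes the cell death protein Noxa, Trp53inp1 (−0.52), the ribonucleotide reductase subunit gene Rrm2b (−0.57) and Mdm2 (−0.33), the ubiquitin ligase of p53. NFkB-driven cytokine genes had a median of −0.10 with 21 of 28 below 0 and 5 lower at an unadjusted p under 0.05, among them Il23a (−0.76), Cxcl1 (−0.40) and Csf2 (−0.44), and 1 higher, the NFkB subunit gene Relb (0.35). Short-lived growth regulators had a median of −0.11 with 13 of 18 below 0. Chaperone and translocon genes of the endoplasmic reticulum had a median of −0.06, with 5 genes lower at an unadjusted p under 0.05, the chaperone genes Dnajb11 (−0.39), Hsp90b1 (−0.37), Pdia6 (−0.33) and Dnajb9 (−0.40) and the translocon gene Sec62 (−0.32), and 1 higher, the translocon gene Sec61g (0.50).

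mRNAs under iron or polyamine control moved in both directions. Of 17, 4 were higher and 3 lower at an unadjusted p under 0.05, against 3.62% and 4.43% of all genes. Their median was 0.20. Slc40a1, the iron exporter ferroportin, had log2 ratios of −3.21, −2.98 and −3.18 in KO cultures, against −2.35, −2.56 and −2.52 in WT cultures, with no overlap. Its difference was −0.65 (SE 0.15) and did not pass (adjusted p = 0.11, edgeR). Azin1, the antizyme inhibitor, differed by −0.54 and Tfrc, the transferrin receptor, by −0.40, while Srm, spermidine synthase, differed by 0.46. The highest median, 0.21, belonged to 14 snoRNA host genes and the lowest, −0.20, to 5 nuclear long noncoding RNAs, among them Neat1 (−0.40). Further medians were 0.06 for 74 respiratory chain genes, 0.03 for 77 mitochondrial ribosomal protein genes, −0.01 for 34 proteasome genes, −0.00 for 28 luminal and 0.02 for 27 basal urothelial genes, 0.13 for 21 squamous genes and 0.05 for 29 chromatin remodeller genes. The signs of the proteasome (0.05) and luminal (0.06) medians turned with scaling by library totals, and that of the mitochondrial ribosomal proteins with GC correction (−0.0063). In the last list Smarcc2, a BAF core subunit, differed by 0.34.

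**Figure D4:**
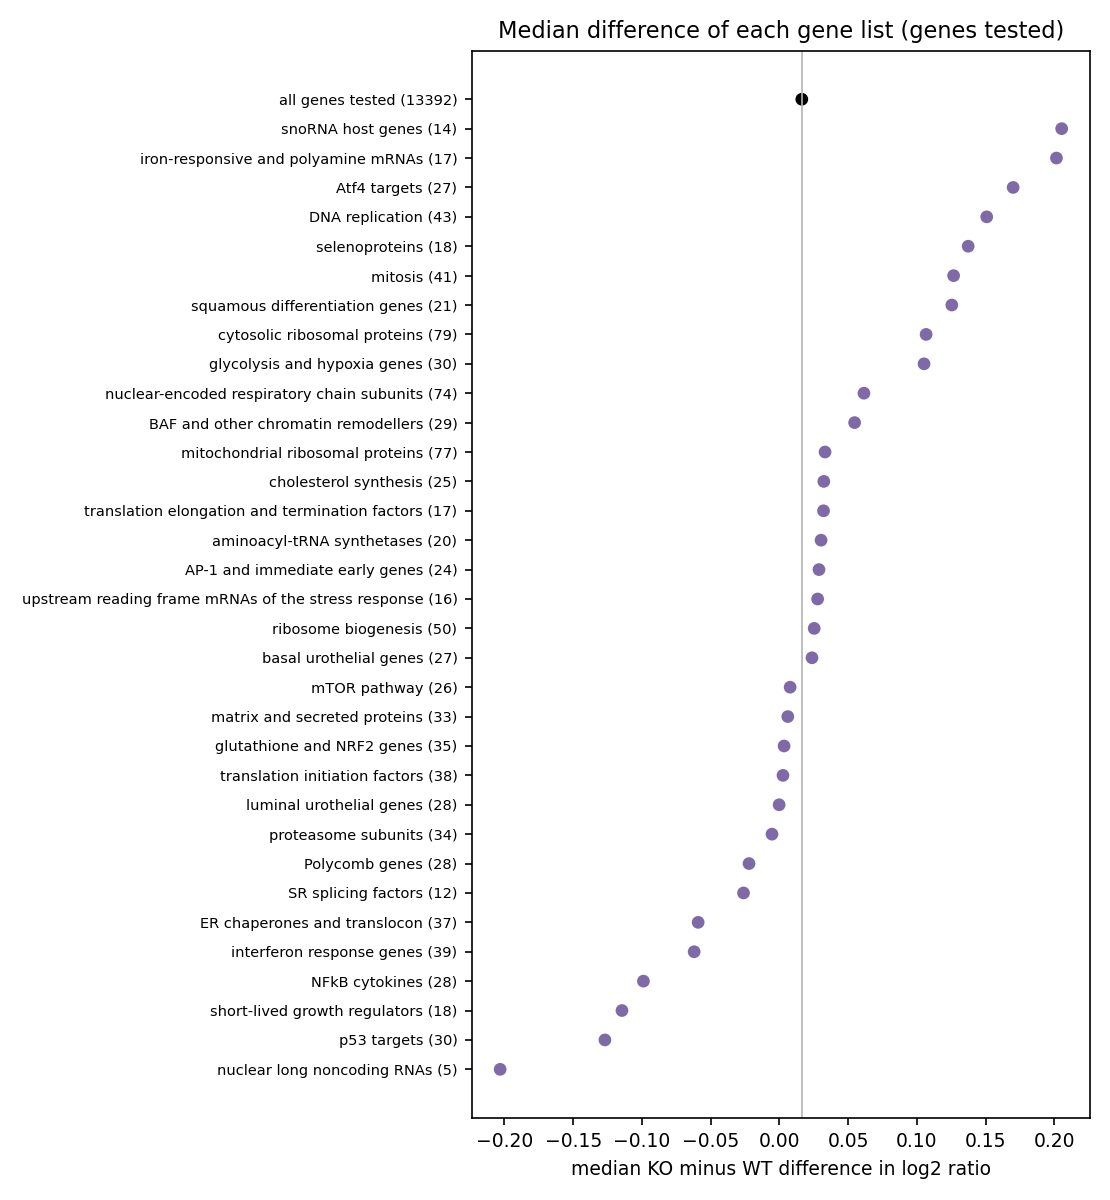
Median KO minus WT difference in the log2 polysome to subpolysome ratio (horizontal axis) for each gene list, with the number of genes tested in brackets and all genes tested at the top (black, with a grey line at its value). The replication-dependent histones are left out; all other medians lie between −0.20 and 0.21.

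The difference in the ratio varied with the base composition of the mRNA. With 12732 of 13392 genes (95.1%) matched to a coding transcript, the median difference was −0.13, −0.04, 0.03, 0.08 and 0.10 on the log2 scale in 5 groups of equal size from the lowest to the highest GC content. In the lowest group 1.02% of genes were higher and 11.2% lower at an unadjusted p under 0.05, and in the highest group 6.87% were higher and 1.77% lower. Wsb1, Spp1 and Ifi202b, with 43.5, 44.2 and 37.4% GC, were in the lowest group. Pnn (43.4%), Chac2 (37.6%), Ogt (42.9%) and Tmprss11e (40.0%) were in it too, while Nkain1 (63.2%), Ly6g6c (56.9%) and Adamtsl5 (61.7%) were in the highest. The called genes did not follow GC content throughout. From the lowest to the highest GC content, the groups held 3, 1, 4, 2 and 0 called genes. Those that rose had 47.0% (C1s1) to 53.1% (D730001G18Rik) GC, and Rsrp1, which fell, had 51.7%. Rn45s and Mir6240 had no GC value.

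This trend was not shared by all cultures of a genotype. The median log2 ratio of the lowest GC group was 0.16, 0.16 and 0.05 in KO cultures, against 0.14, 0.32 and 0.31 in WT cultures, and that of the highest was −0.14, −0.15 and 0.10 in KO cultures, against −0.08, −0.27 and −0.13 in WT cultures. KO replicate 3 stood apart with the highest value in the highest GC group, WT replicate 2 had the steepest decline, and WT replicate 1 lay among the KO cultures. Spearman's correlation of the log2 ratio with GC content over genes was −0.09, −0.10 and 0.01 in KO cultures, against −0.07, −0.19 and −0.13 in WT cultures. An exact 2-sided permutation test of the 3 against 3 correlations gave p = 0.3, where the smallest possible p is 0.1. Of 4 such comparisons, those for the length of the 3′ UTR, the 5′ UTR and the coding region gave exact p = 0.2, 0.7 and 1.0 (adjusted 0.6 for GC content and the 3′ UTR, 0.933 and 1.0). Without KO replicate 3 the median difference of the highest GC group was 0.02, and without WT replicate 2 it was 0.04.

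When a curve of each library over GC content was taken out, the medians of the 5 groups lay between 0.00 and 0.02. In that fit, added after the trend was seen, 9 of the 12 genes still passed. The differences of Wsb1 and Spp1 were −0.79 and −0.88 (adjusted p = 0.014 and 0.026), and those of Ifi202b, Mir6240 and Rn45s did not pass (−0.85, −4.31 and −3.06, with adjusted p = 0.058, 0.058 and 0.099), all from edgeR. The removal takes out any genotype difference that follows GC content, whatever its origin. The list medians kept their sign for p53 targets (−0.12), NFkB cytokines (−0.10), Atf4 targets (0.13), mitosis (0.17), DNA replication (0.18) and cytosolic ribosomal proteins (0.08).

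**Figure D5:**
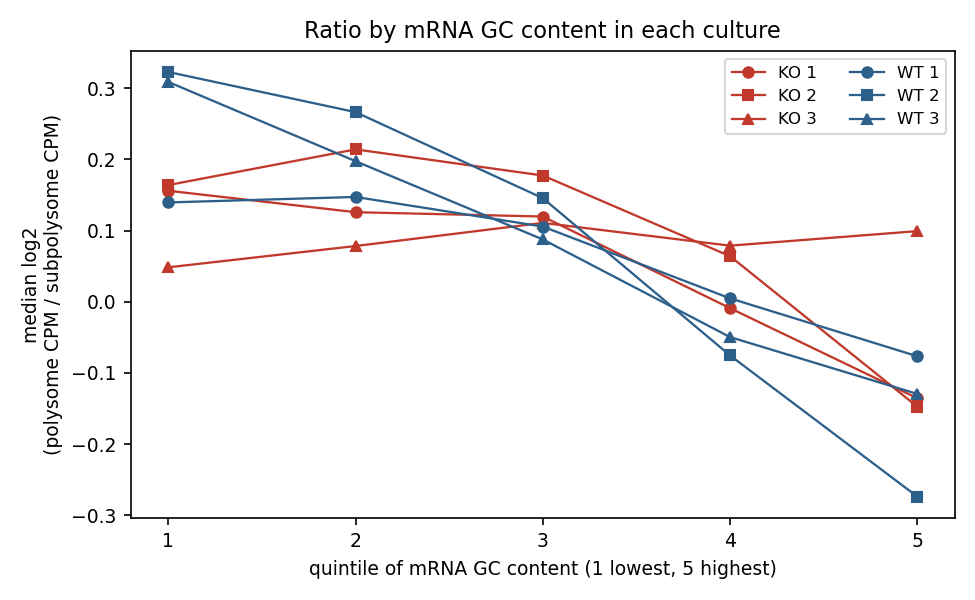
Median log2 polysome over subpolysome CPM (vertical axis) in 5 groups of genes by mRNA GC content (horizontal axis), 1 line per culture, KO red and WT blue, with a marker shape per replicate. Lines of the genotypes cross and overlap; KO replicate 3 is nearly flat, and WT replicate 2 declines most.

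Length gave smaller differences. By 3′ UTR length the median difference was 0.07 in the shortest of 5 groups and −0.08 in the longest, where 9.19% of genes were lower at an unadjusted p under 0.05. By coding length the 5 medians lay between −0.02 and 0.05, and by 5′ UTR length between −0.01 and 0.02. The log2 ratio was negatively related to coding length over genes in every culture, with Spearman correlations of −0.21, −0.13 and −0.24 in KO cultures, against −0.17, −0.20 and −0.21 in WT cultures.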

How the data were processed

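The deposited files hold raw read counts per gene, 1 column per library. The reads were aligned with Bowtie to mm10 and counted with HTSeq, per the submitters' processing notes; versions, annotation and strand setting are not stated in the sources used here. Rows that name no gene were 0 in number.

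From these counts, genes passing edgeR's filterByExpr were scaled by TMM factors and fitted by edgeR 4.0.16 (R 4.3.3) as culture plus fraction plus genotype by fraction over 12 libraries, which leaves 4 residual degrees of freedom. P-values were adjusted over 13392 genes (Benjamini-Hochberg), and a gene was called at an adjusted p under 0.05. Per-library CPM of single genes carry the TMM scaling, marker sums and Rn45s shares use the library total, per-culture log2 ratios a prior count of 2, and the fraction and total RNA comparisons were fitted separately without a block. limma 3.58.1 and DESeq2 1.42.0 were alternatives. GC content and lengths came from GENCODE vM21 transcripts, and coordinates from RefSeq GRCm38.p6.

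Named genes were every called gene, the 8 highest and 8 lowest differences with average log2 CPM of at least 4, unadjusted p under 0.05, no overlap of cultures and no predicted gene model or pseudogene, a set of 17 chosen genes, and the 2 smallest p of each list. Where list members are counted at an unadjusted p under 0.05, further members are named. The comparison, with the libraries that are its members, and the gene lists were chosen with earlier results of these data known. Replicate numbers did not pair the genotypes: deviations of same-numbered cultures correlated at −0.01 to 0.03. Within cultures, the polysome and subpolysome deviations from the genotype means correlated only weakly across genes, at 0.05 (KO replicate 1) to 0.15 (WT replicate 1). The join of the 2 fractions into cultures therefore rests on the labels. The 4 cancer organoid libraries were not used here.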

Additional observations from a re-analysis of the deposited data

Results flagged for a closer look

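For 12 genes the KO over WT change differed between the polysome and the subpolysome fraction by the interaction test in edgeR, and each is listed with the log2 change in polysomes minus that in subpolysomes. The difference was 4.96 for C1s1, 1.84 for Dnase1l2, 1.55 for D730001G18Rik, 1.33 for Shmt1, 1.04 for Ttll5 and 0.84 for Calcb. It was −0.90 for Wsb1, −0.98 for Spp1, −1.08 for Ifi202b, −1.22 for Rsrp1, −3.05 for Rn45s and −4.30 for Mir6240. Of these, 8 were called in each of the 2 fractions on their own, in the same libraries that the interaction test used. Over all genes, 3757 of 13066 were called in polysomes and 2782 of 12645 in subpolysomes. How many of all genes were called in both fractions was not counted, so the 8 have no direct background. In groups of 3 cultures no test for a single outlying culture was made.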

How the results depend on the processing

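The 12 calls in the ratio were 11 with DESeq2 size factors, 13 with library totals only, 11 with a stricter filter, 13 with Rn45s left out and 9 with GC correction. They were 34 with DESeq2's test, 4 with limma on log2 ratios, 47 with no filter on low counts (12 shared) and 24 with all 18 organoid libraries (12 shared). With no replicate block 1 gene passed, and with a replicate block across genotypes, whose numbers do not pair the cultures, 62 passed (12 shared). Leaving out 1 culture gave 5 to 20 calls, 5 of the 12 remaining without WT replicate 1 and 4 without WT replicate 3. Calls in polysomes were 2842 to 3862, in subpolysomes 1993 to 2540 and in total RNA 6154 to 6765 with 1 culture left out, and within 1.5 times the given counts under every alternative. For the polysome to total RNA ratio, with 0 calls, a replicate block across genotypes gave 4, no filter 10, and leaving out 1 culture 0 to 3. The cause was not tested. Signs turned for differences near 0: with library totals only, Arid1b was 0.0063, Myc 0.0428, Ccnd1 0.0068 and Upk3a 0.018, and Eef2k was −0.007 with all 18 organoid libraries and −0.0042 with Rn45s left out. With 1 culture left out, the ranges that crossed 0 were −0.049 to 0.0901 for Eef2k, −0.1433 to 0.0698 for Myc, −0.1099 to 0.0562 for Ccnd1, −0.0293 to 0.1677 for Atf4, −0.2471 to 0.0843 for Upk3a, −0.0516 to 0.163 for H19 and −0.7371 to 0.045 for Igf2. The 95% interval of the ratio difference lay within 1 log2 unit for 9774 of 13392 genes.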
